A study of Mus musculus with 12 samples.

Results

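The response of 2 mouse testis cell lines to the same chemical was compared gene by gene, and the genes whose responses differed between the lines are described here. MEHP is a monoester to which the phthalate plasticizer DEHP is broken down in the body. TM4, labelled a Sertoli cell line, and TM3, labelled a Leydig cell line, were each kept for 72 h with 100 uM MEHP or with its solvent, DMSO at 0.1%. The 4 groups were TM4 with MEHP, TM4 with DMSO, TM3 with MEHP and TM3 with DMSO, and each held 3 libraries of poly-T captured RNA. The quantity described is the response of TM4 (log2 fold change, MEHP over DMSO) minus the response of TM3, so a positive difference means that MEHP moved the gene further up, or less far down, in TM4. It was fitted for 15700 of the 55004 genes in the authors' count table, using all 12 libraries together, and 24780 genes had no count in any library. Apart from cell type markers and the junction gene Espn, genes are named only where every library held 10 or more counts, which was the case for 11608 of those tested. The labels do not say whether replicates were separate cultures, so p-values measure the spread between these libraries, which may be technical.

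Phthalate monoesters are known ligands of the peroxisome proliferator-activated receptors (PPARs), nuclear receptors that pair with RXR and switch on genes of fatty acid uptake, storage and oxidation. In the testis, Sertoli cells surround and feed the germ cells and are a known target of MEHP, and Leydig cells make testosterone under the control of luteinizing hormone. The lines keep few of these features. In all 12 libraries the Leydig genes Lhcgr, Hsd3b1, Hsd3b6, Cyp19a1 and Hsd17b3 and the Sertoli genes Fshr and Dmrt1 had no count. Other Sertoli markers were split between the lines. The Sertoli transcription factor gene Wt1 stood at 0 to 0.170 CPM in the libraries labelled TM4 and 163 to 175 CPM in those labelled TM3, and Clu, a secreted chaperone, at 0.459 to 2.38 CPM in TM4 and 153 to 211 CPM in TM3, which goes against the Sertoli label of TM4. Sox9, a transcription factor gene of Sertoli cells, was low in both, at 1.47 to 3.41 CPM in TM4 and 0.126 to 0.380 CPM in TM3. The 12 Sertoli markers summed to 214 to 255 CPM in TM4 and 391 to 453 CPM in TM3, and the 10 Leydig markers to 8.03 to 10.8 CPM in TM4 and 8.67 to 11.9 CPM in TM3. TM4 and TM3 are used below as the labels give them. The libraries held 15771908 to 18203115 counts, which differ by a ratio of 1.15, and a count of 0 allowed up to 0.165 to 0.190 CPM, taking 3 counts as the limit, for counting error only. CPM is the count relative to the library total after scaling that total by its TMM factor. Those factors were 1.03 to 1.04 in TM4 MEHP, 0.972 to 0.976 in TM4 DMSO and 0.987 to 1.00 in TM3.

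The responses differed for 4134 genes (26.3% of those tested; edgeR quasi-likelihood test, Benjamini-Hochberg adjusted p under 0.05). Of these, 2044 were higher in TM4 than in TM3 (13.0%) and 2090 were lower (13.3%). Of those with 10 or more counts in every library 1934 were higher (16.7%) and 1976 lower (17.0%). Of all 4134, 236 were at least 2-fold higher and 234 at least 2-fold lower, and the median size over all called genes was 0.48 on the log2 scale. By its own test MEHP changed 4856 genes in TM4 (2503 up, 15.9%, and 2353 down, 15.0%, in all 30.9% of those tested) and 2585 genes in TM3 (1419 up, 9.04%, and 1166 down, 7.43%, in all 16.5%). Libraries with MEHP and with DMSO did not overlap in 38.8% of the genes tested in TM4 and in 35.4% in TM3. In 7.89% the difference was called, the libraries did not overlap in either line and the responses were opposite. The TM3 falls numbered 709 without TM3 DMSO replicate 1, 739 without TM3 DMSO replicate 3, 759 without TM3 MEHP replicate 1 and 718 without TM3 MEHP replicate 2. With library totals alone in place of TMM factors, 69.8% of the genes called were higher in TM4, against 49.4% with TMM factors, and the median difference over all genes was 0.11, against 0.01.

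Many genes moved in opposite directions in the lines. Of 1057 genes called in both, 478 (45.2%) changed the same way and 579 the opposite way. All 579 passed the test of the difference, which opposite calls in the same fit made nearly certain. Among the 4134 genes whose responses differed, 365 fell in TM4 and rose in TM3, and 214 rose in TM4 and fell in TM3, together 14.0% of them. Another 1238 rose and 1028 fell in TM4 alone, while 469 rose and 355 fell in TM3 alone, and 377 passed in neither line. In only 88 genes did both lines move the same way by different amounts, with 35 rising and 53 falling in both. Of these, 62 moved further in TM4 and 26 further in TM3. Their number ranged from 46 to 86 when single libraries were left out, and was 58, 53, 53, 46, 53 and 56 without TM3 DMSO replicate 1, TM3 DMSO replicate 3, TM3 MEHP replicates 1, 2 and 3 and TM4 DMSO replicate 2. Across the 11608 genes with 10 or more counts in every library, the responses of the lines, which share no library, correlated at a Pearson r of -0.02 and a Spearman rho of -0.06, given as a description. A response in 1 line alone was often no sign of a difference. The test of the difference was not passed by 1533 genes that changed in TM4 alone, nor by 704 that changed in TM3 alone.

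**Figure D1:**
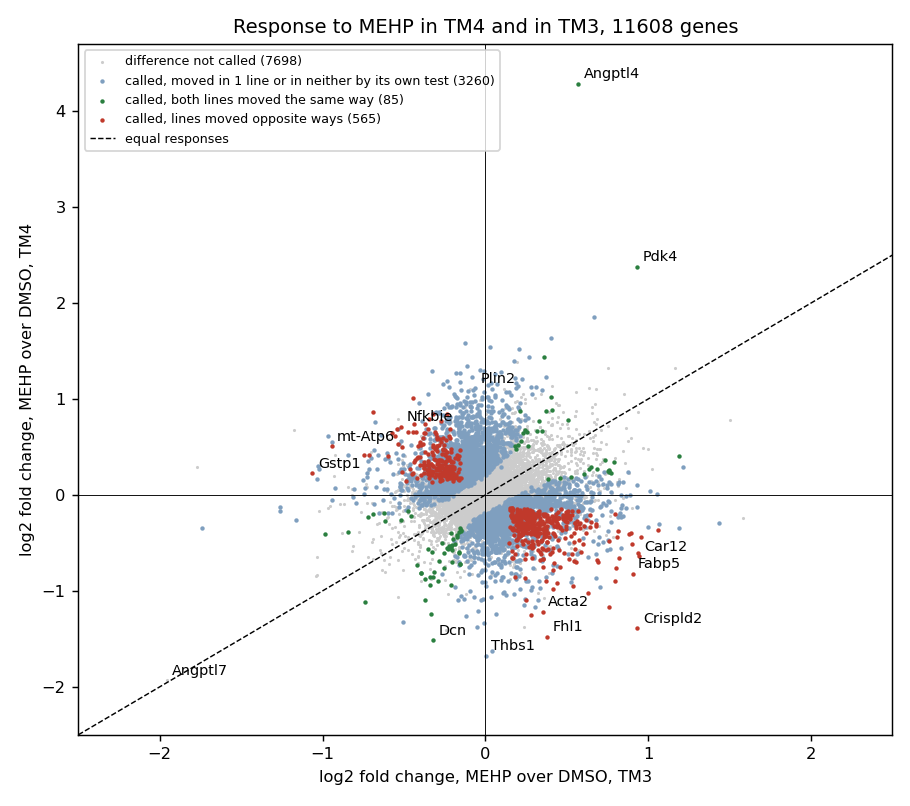
Response to MEHP in TM4 (vertical axis) against TM3 (horizontal axis), each as log2 fold change over DMSO, for the 11608 genes with 10 or more counts in every library. Points are genes coloured by the test of the difference, the dashed line marks equal responses, and Angptl4 and Pdk4 stand above it with rises in both lines while Crispld2, Fabp5 and Car12 fell in TM4 and rose in TM3.

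A target of PPARs gave the largest positive difference among genes with 10 or more counts in every library. Angptl4 (chromosome 17, 33773750 to 33781575), a secreted inhibitor of lipoprotein lipase, had 50.4, 56.8 and 54.8 CPM in the TM4 MEHP libraries, against 2.84, 2.89 and 2.53 CPM in the TM4 DMSO libraries. TM3 libraries held 154, 144 and 147 CPM in the TM3 MEHP libraries, against 105, 96.3 and 98.1 CPM in the TM3 DMSO libraries. The groups did not overlap in either line, and the TM4 level with MEHP stayed below both TM3 levels. The response was 4.29 ± 0.10 in TM4 and 0.57 ± 0.06 in TM3 (log2 fold change ± SE), a difference of 3.72 ± 0.12 (adjusted p = 1.02e-20). Pdk4 (chromosome 6, 5483351 to 5496309), the kinase that shuts pyruvate out of the citric acid cycle, had 39.2, 47.4 and 37.7 CPM in the TM4 MEHP libraries, against 8.08, 8.66 and 7.14 CPM in the TM4 DMSO libraries. TM3 libraries began higher, with 52.1, 48.3 and 53.7 CPM in the TM3 MEHP libraries, against 28.7, 24.2 and 27.9 CPM in the TM3 DMSO libraries. Both lines rose, and the response was larger in TM4 by 1.45 ± 0.14 (adjusted p = 3.32e-09).

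Plin2 (chromosome 4, 86648386 to 86670060), which coats lipid droplets, rose in TM4 alone. It had 117, 127 and 129 CPM in the TM4 MEHP libraries, against 56.1, 60.8 and 55.5 CPM in the TM4 DMSO libraries. The TM3 groups overlapped, with 101, 98.9 and 106 CPM in the TM3 MEHP libraries, against 114, 105 and 100.2 CPM in the TM3 DMSO libraries, and the difference was 1.18 ± 0.09 (adjusted p = 2.14e-11). Fgf21, a hormone of fasting metabolism, averaged 22.4 ± 1.82 CPM with MEHP and 8.83 ± 1.78 CPM with DMSO in TM4 and 1.63 ± 0.215 CPM with MEHP and 1.76 ± 0.804 CPM with DMSO in TM3 (SD, n = 3), a difference of 1.46 ± 0.32 (adjusted p = 0.00102). Cpt1a, which admits fatty acids to the mitochondrion, rose in both lines, by 0.88 in TM4 and 0.37 in TM3, and further in TM4 (0.50 ± 0.08, adjusted p = 1.17e-05). Of 21 PPAR targets tested, 8 were higher and 2 lower in the difference, with a median of 0.18 against 0.01 over all genes tested. Over all genes tested 13.0% were higher and 13.3% lower, and of those with 10 or more counts in every library 16.7% and 17.0%. These shares are the background for this and each later list. By the tests in each line 11 of the 21 targets rose and 2 fell in TM4, and 7 rose in TM3. The number higher was 5 when either TM3 DMSO replicate 1 or TM3 MEHP replicate 1 was left out. The letters GGNCANAGG, the core of the PPAR and RXR direct repeat, were present on either strand of 1 of 15 RefSeq promoters found for this list (6.67%), against 8.15% of the promoters of all genes tested, and the letters AGGTCA that a single nuclear receptor binds, which can overlap it, of 2 (13.3%), against 12.1%. The other direction was held by Fabp5, a fatty acid binding protein (-1.73 ± 0.16, adjusted p = 1.15e-09), and by Lpl, the lipase that Angptl4 inhibits (-0.27). Fabp5 averaged 24.8 ± 2.49 CPM with MEHP and 43.8 ± 2.37 CPM with DMSO in TM4 and 9.50 ± 0.661 CPM with MEHP and 5.06 ± 0.573 CPM with DMSO in TM3, so it fell in 1 line and rose in the other. Of the receptors, Ppard was not called in either line or in the difference, whose 95% interval ran from -0.28 to 0.11. Rxra rose in TM4 (0.40 ± 0.07) and its difference was 0.46 ± 0.10 (adjusted p = 0.000662).

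Enzymes of mitochondrial fatty acid oxidation were higher in the difference in 14 of 29 cases and lower in 1, with a median of 0.32. Etfb, a subunit of the flavoprotein that takes electrons from the first step of oxidation, rose in TM4 alone, where it averaged 6.30 ± 0.402 CPM with MEHP and 2.79 ± 0.591 CPM with DMSO (1.33 ± 0.22, adjusted p = 3.08e-05). Cpt2, the partner of Cpt1a at the inner membrane, differed by 0.66 ± 0.12, and Ech1, an auxiliary isomerase, rose in both lines with a difference of 0.66 ± 0.09. The exception was Acsl3, an acyl-CoA synthetase of lipid droplets and the endoplasmic reticulum, which fell in TM4 (-0.17) and rose in TM3 (0.57). Without TM4 MEHP replicate 2 the number lower was 2. Of 27 genes of peroxisomal lipid metabolism, 7 were higher and 1 lower, led by Amacr, a racemase of branched fatty acids (0.76 ± 0.20, adjusted p = 0.00627), and Decr2, a peroxisomal reductase (0.55 ± 0.13, adjusted p = 0.00216).

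**Figure D2:**
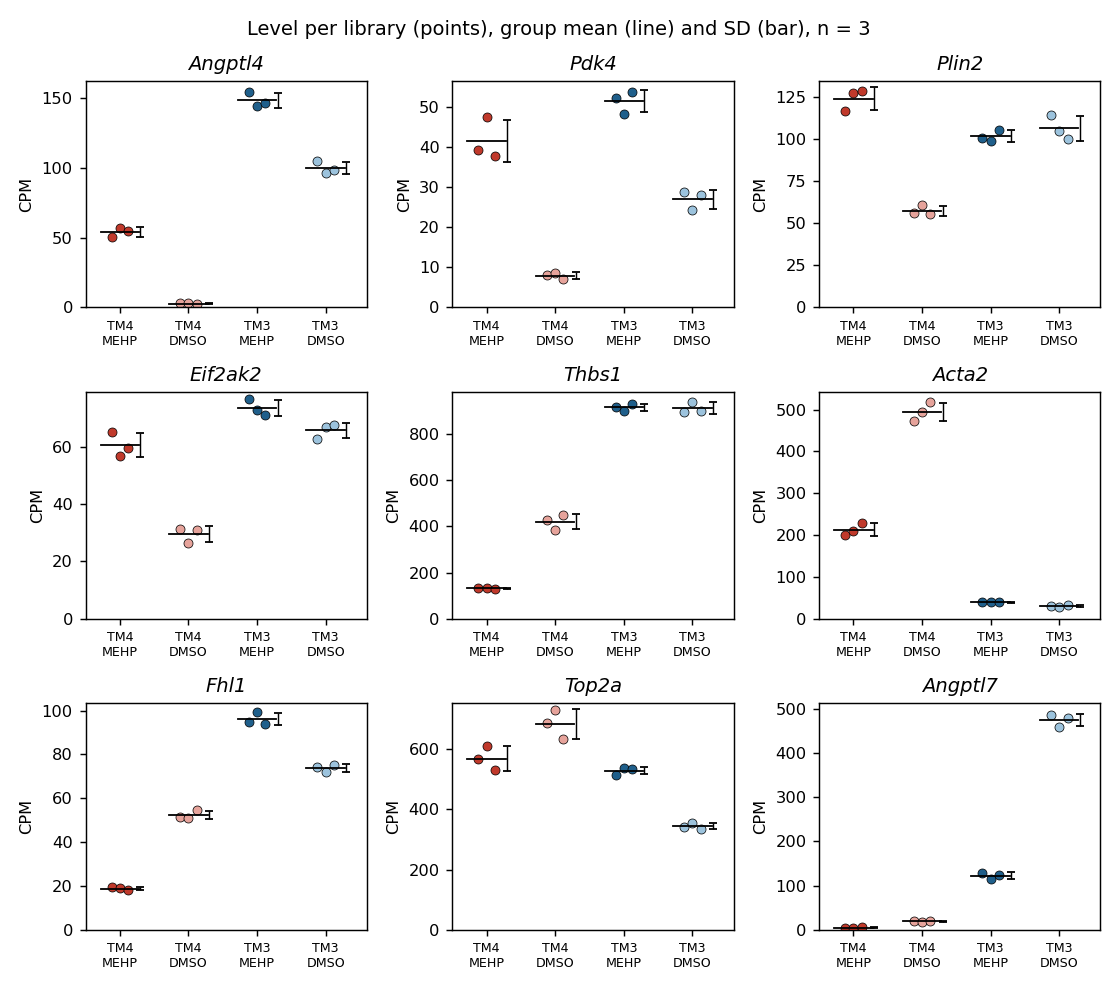
Level of 9 genes in each library, in CPM, by group, with the group mean (line) and SD (bar) over 3 libraries. Angptl4, Pdk4, Plin2 and Eif2ak2 were higher in the difference, Thbs1, Acta2, Fhl1 and Top2a lower, and Angptl7 fell in both lines although TM3 held more of it.

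Genes of lipid synthesis differed the other way. Of 25 genes of cholesterol synthesis and uptake, 13 were lower in the difference and 1 was higher, with a median of -0.22. In TM4 10 fell and 5 rose, and in TM3 10 rose. Dhcr7, which completes cholesterol, had 57.8, 65.6 and 61.8 CPM in the TM4 MEHP libraries, against 70.7, 64.1 and 67.2 CPM in the TM4 DMSO libraries, with the groups overlapping. It rose in TM3 alone, with 46.4, 46.3 and 46.9 CPM in the TM3 MEHP libraries, against 31.6, 32.9 and 34.2 CPM in the TM3 DMSO libraries, where they did not overlap, and the difference was -0.62 ± 0.09 (adjusted p = 9.3e-06). Fdps, an enzyme of isoprenoid synthesis, and Hmgcs1, an early step of the pathway, fell in TM4 alone, with differences of -0.69 ± 0.14 and -0.49 ± 0.08. The single gene on the other side was Pmvk, phosphomevalonate kinase (0.64 ± 0.15, adjusted p = 0.00264).

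Fatty acid synthesis and desaturation genes were lower in 10 of 19 cases and higher in 2 (median -0.20). In TM3 10 rose, while in TM4 5 rose and 6 fell. Scd2, a stearoyl-CoA desaturase, fell in TM4 (-0.23 ± 0.05) and rose in TM3 (0.48 ± 0.06). Scd1 passed in TM3 alone (0.65 ± 0.06) and stood at 0.03 ± 0.05 in TM4, a difference of -0.62 ± 0.08. Scd1 and Scd2 are paralogs whose shared reads the counting may split. Fasn, the fatty acid synthase, fell in TM4 alone, with a difference of -0.56 ± 0.09 (adjusted p = 2.93e-05), and Acaca, which makes malonyl-CoA, rose in both lines and less in TM4 (-0.52 ± 0.12).

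Glycolysis and hypoxia-responsive genes were lower in the difference in 14 of 36 cases and higher in 2 (median -0.26). In TM3 18 rose and 2 fell, and in TM4 8 rose and 9 fell. Pfkp, a phosphofructokinase, averaged 81.0 ± 2.87 CPM with MEHP and 92.8 ± 1.29 CPM with DMSO in TM4 and 57.3 ± 2.60 CPM with MEHP and 33.0 ± 2.18 CPM with DMSO in TM3, and its difference was -0.99 ± 0.09 (adjusted p = 1.15e-09). P4ha2 (chromosome 11, 54100095 to 54131665), which hydroxylates collagen prolines and is induced by hypoxia-inducible factor (HIF), had 129, 141 and 125 CPM in the TM4 MEHP libraries, against 174, 166 and 178 CPM in the TM4 DMSO libraries. Its TM3 libraries moved the other way, at 92.0, 91.6 and 94.9 CPM in the TM3 MEHP libraries, against 65.9, 61.6 and 63.5 CPM in the TM3 DMSO libraries, and the difference was -0.94 ± 0.08 (adjusted p = 3.96e-10). Bnip3, a mitophagy receptor, rose in both lines, less in TM4 (-0.50 ± 0.12). The glucose transporter gene Slc2a1 was not called (95% interval -0.41 to 0.09). HIF binds around the letters ACGTG, which were present on either strand of 18 of 32 RefSeq promoters of this list (56.2%), against 25.5% of the promoters of all genes tested. The letters were not particular to this list. They were present in 17 of 29 lysosome and autophagy promoters (58.6%), a list with 12 genes higher and 1 lower. In the hypoxia list the genes with the motif had a median difference of -0.34 and those without it -0.14. The promoter of P4ha2 (GRCm38.p6, chr11:54100674-54100973, plus strand) is printed as that of the largest difference among the named genes of the list whose promoter holds the letters, which stand in capitals on either strand.
P4ha2: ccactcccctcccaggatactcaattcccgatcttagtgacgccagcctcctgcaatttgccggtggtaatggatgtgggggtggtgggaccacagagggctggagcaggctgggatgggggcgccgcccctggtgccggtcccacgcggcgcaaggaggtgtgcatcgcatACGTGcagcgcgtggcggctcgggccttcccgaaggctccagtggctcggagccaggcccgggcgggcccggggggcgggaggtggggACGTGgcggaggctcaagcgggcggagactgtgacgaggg

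Most genes of the extracellular matrix were lower in the difference. Of 43 matrix genes tested, 31 were lower and 2 higher, with a median of -0.68 against 0.01 over all genes. In TM4 34 fell, whereas in TM3 12 rose and 12 fell. Thbs1 (chromosome 2, 118111876 to 118127133), a secreted glycoprotein that binds matrix and activates TGF-beta, had 134, 131 and 130.5 CPM in the TM4 MEHP libraries, against 427, 384 and 448 CPM in the TM4 DMSO libraries. The TM3 values were 920.2, 899.9 and 929 CPM in the TM3 MEHP libraries, against 898, 942 and 902 CPM in the TM3 DMSO libraries, with the groups overlapping. The response was -1.67 ± 0.05 in TM4 and 0.00 ± 0.05 in TM3, and the difference was -1.68 ± 0.08 (adjusted p = 1.6e-16). Fbn1, the fibrillin of elastic microfibrils, had 70.8, 65.3 and 68.8 CPM in the TM4 MEHP libraries, against 149.5, 141 and 148 CPM in the TM4 DMSO libraries. The TM3 libraries did not overlap either and stood in the opposite order, at 298, 287 and 285 CPM in the TM3 MEHP libraries, against 240.2, 257 and 237 CPM in the TM3 DMSO libraries, for a difference of -1.35 ± 0.07 (adjusted p = 1.37e-14).

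Collagen genes varied. Col11a1, a fibril-forming chain, averaged 226 ± 10.5 CPM with MEHP and 382 ± 17.2 CPM with DMSO in TM4 and 67.0 ± 0.0522 CPM with MEHP and 38.4 ± 2.15 CPM with DMSO in TM3, opposite responses that differed by -1.57 ± 0.08 (adjusted p = 2.41e-15). Col12a1, a fibril-associated chain, also moved in opposite directions (-1.48 ± 0.16), from a low level in TM4. Col1a1, a chain of type I collagen, fell in TM4 alone, averaging 1759 ± 78.0 CPM with MEHP and 2827 ± 123 CPM with DMSO there and 7197 ± 142 CPM with MEHP and 6637 ± 124 CPM with DMSO in TM3 (-0.80 ± 0.07). Decorin, encoded by Dcn, and tenascin C, encoded by Tnc, fell in both lines and further in TM4, with differences of -1.19 ± 0.09 and -0.72 ± 0.08. Spp1, the bone matrix protein osteopontin, fell in TM4 alone (-1.44 ± 0.27, adjusted p = 0.000835). The number of matrix genes higher was 1 without TM3 DMSO replicates 1 or 3, TM3 MEHP replicate 1, TM4 DMSO replicates 1 or 2 or TM4 MEHP replicate 2. Markers of peritubular myoid cells and fibroblasts, several of which are matrix genes too, moved with this list. Their summed level in TM4 was 5197 to 5576 CPM with MEHP and 7478 to 8220.0 CPM with DMSO, and in TM3 13173 to 13461 CPM with MEHP and 13494 to 13970.4 CPM with DMSO. Of 7 of them tested 5 were lower and 0 higher, with none of the 8 listed at 0 in any group, and their part in the result was not tested.

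Proteases of the matrix and their inhibitors were lower in 13 of 26 cases and higher in 3 (median -0.46). Timp3, an inhibitor of metalloproteases, fell in TM4 and rose in TM3, with a difference of -0.91 ± 0.13. Plau, the urokinase that activates plasminogen, fell in TM4 alone (-0.85 ± 0.10). On the other side Mmp14, a membrane-bound collagenase, averaged 112 ± 4.31 CPM with MEHP and 119 ± 1.23 CPM with DMSO in TM4 and 261 ± 10.4 CPM with MEHP and 419 ± 8.49 CPM with DMSO in TM3, so that the fall in TM3 gave a difference of 0.59 ± 0.07 (adjusted p = 2.49e-07).

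Contractile genes followed the same sign. Acta2 (chromosome 19, 34241090 to 34255336), the smooth muscle actin, had 200.1, 209 and 229.7 CPM in the TM4 MEHP libraries, against 474, 494 and 517 CPM in the TM4 DMSO libraries. In TM3, where it was lower throughout, it had 38.6, 39.5 and 38.7 CPM in the TM3 MEHP libraries, against 31.0, 27.4 and 33.2 CPM in the TM3 DMSO libraries. TM4 fell, TM3 rose, and the difference was -1.57 ± 0.09 (adjusted p = 5.53e-14). Fhl1, a LIM protein of muscle and cytoskeleton, had 19.3, 18.9 and 18.3 CPM in the TM4 MEHP libraries, against 51.5, 50.9 and 54.7 CPM in the TM4 DMSO libraries. The TM3 libraries again stood the other way, at 94.9, 99.3 and 94.1 CPM in the TM3 MEHP libraries, against 74.5, 71.8 and 75.1 CPM in the TM3 DMSO libraries, for a difference of -1.86 ± 0.09 (adjusted p = 7.41e-16). Of 27 smooth muscle and contractile genes, 17 were lower and 1 higher (median -0.43), among them Myh9, the non-muscle myosin heavy chain (-0.86 ± 0.08), and the calponin gene Cnn1 (-0.86 ± 0.24). The gene on the other side was Filip1l (0.68), and the number higher was 2 without TM3 DMSO replicate 2, TM4 DMSO replicates 2 or 3 or TM4 MEHP replicate 1.

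The proteins YAP and TEAD carry mechanical and growth signals to the nucleus, and 11 of 22 of their targets were lower and 0 higher (median -0.34). In TM4 11 fell, while in TM3 6 rose and 1 fell. Crim1 (chromosome 17, 78200248 to 78376592), a membrane protein that binds BMPs, had 109.9, 115 and 97.3 CPM in the TM4 MEHP libraries, against 219, 203 and 216 CPM in the TM4 DMSO libraries. TM3 had 321, 302 and 328 CPM in the TM3 MEHP libraries, against 233, 246 and 233 CPM in the TM3 DMSO libraries, and the opposite responses differed by -1.40 ± 0.08 (adjusted p = 4.32e-14). Amotl2, an angiomotin that holds YAP in the cytoplasm, fell in TM4 alone (-0.83 ± 0.08, adjusted p = 3.56e-09). Cyr61, a matricellular protein and a standard YAP target, fell in TM4 (-0.54) and rose in TM3 (0.20), a difference of -0.73 ± 0.07. Its relative Ctgf fell in TM4 (-0.72 ± 0.16) but its difference of -0.89 ± 0.29 did not pass the test (adjusted p = 0.0515), and it was called in 9 of 25 alternatives. These were RLE factors, TMM factors within each line, a filter of 10 counts in every library, DESeq2, limma-voom, the replicate block within each line, the correction for length and GC content, and leaving out TM3 DMSO replicate 1 or TM4 MEHP replicate 2. The TEAD letters GGAATG were present in 7 of 16 promoters of this list (43.8%), against 12.1% of all. Smooth muscle and contractile promoters held them about as often, in 10 of 23 (43.5%). Of the 7 YAP and TEAD targets with the letters 6 were lower (median -0.49), and of the 9 without them 4 were lower (median -0.14). Shown are the promoters of the 2 largest differences among the named genes whose promoter holds the letters, with these or their reverse complement in capitals (GRCm38.p6, Crim1 at chr17:78199998-78200297, plus strand, Amotl2 at chr9:102717554-102717853, plus strand).
Crim1: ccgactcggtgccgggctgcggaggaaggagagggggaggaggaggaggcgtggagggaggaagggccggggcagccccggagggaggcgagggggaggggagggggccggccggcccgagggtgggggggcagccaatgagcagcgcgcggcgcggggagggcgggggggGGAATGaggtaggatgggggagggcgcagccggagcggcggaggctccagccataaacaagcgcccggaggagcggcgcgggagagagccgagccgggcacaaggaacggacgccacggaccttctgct
Amotl2: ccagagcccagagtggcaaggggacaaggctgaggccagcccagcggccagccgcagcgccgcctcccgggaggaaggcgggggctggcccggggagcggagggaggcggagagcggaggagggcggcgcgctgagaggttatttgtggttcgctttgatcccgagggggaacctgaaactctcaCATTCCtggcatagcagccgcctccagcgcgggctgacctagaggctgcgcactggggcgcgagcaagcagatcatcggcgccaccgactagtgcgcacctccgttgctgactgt

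TGF-beta and BMP pathway genes, whose signals also act on matrix, were lower in 12 of 33 cases and higher in 2 (median -0.20). Smad6, an inhibitory SMAD, fell in TM4 and rose in TM3 (-0.81 ± 0.13, adjusted p = 3.65e-05). Inhbb, the beta B chain of inhibin and activin and a Sertoli product, had 109, 115 and 122 CPM in the TM4 MEHP libraries, against 143, 148 and 150.4 CPM in the TM4 DMSO libraries. In TM3 it had 30.3, 37.0 and 33.4 CPM in the TM3 MEHP libraries, against 28.8, 24.2 and 26.0 CPM in the TM3 DMSO libraries, so the groups stood in opposite order, and the difference was -0.71 ± 0.10 (adjusted p = 3.51e-06). The number higher was 1 without TM4 DMSO replicate 3 or TM4 MEHP replicate 2. Of 22 junction genes 9 were lower and 1 higher. Cldn12, a claudin, and F11r, a junctional adhesion molecule, moved in opposite directions (-0.55 ± 0.09 and -0.43 ± 0.07), Cgn, the cingulin of tight junctions, fell in both lines (-0.53 ± 0.14), and the integrin chain Itgb1 fell in TM4 alone (-0.51 ± 0.07). The 1 gene higher, Espn, had no count in the TM4 DMSO libraries and 0.178, 0.110 and 0.0574 CPM in the TM4 MEHP libraries, which is 3 counts or fewer a library, and averaged 2.24 ± 0.480 CPM with MEHP and 2.78 ± 0.595 CPM with DMSO in TM3. It was not called without any 1 of the 3 TM4 DMSO libraries or without TM4 MEHP replicate 1.

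**Figure D3:**
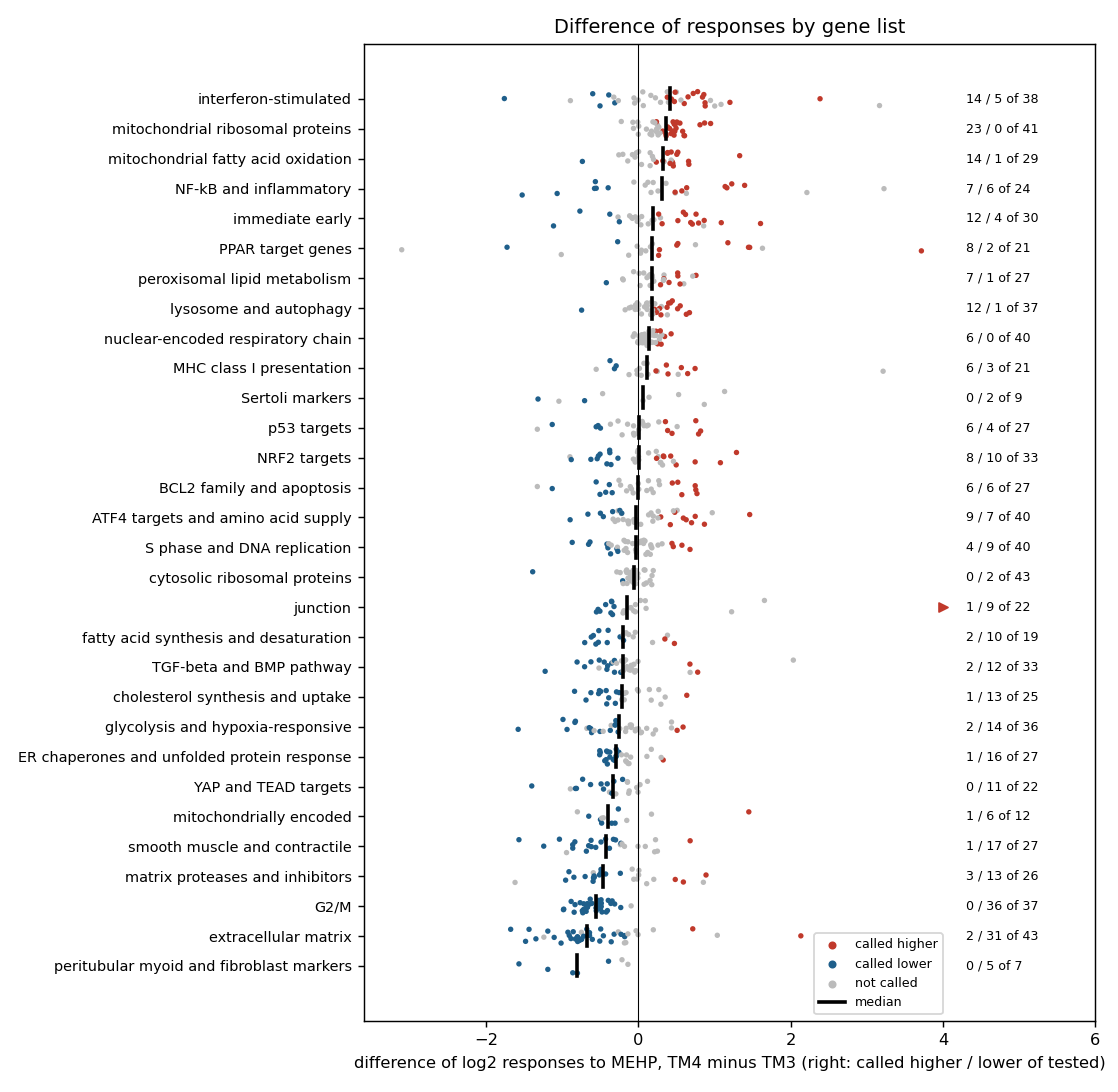
Difference of responses (log2, TM4 minus TM3) for each tested gene of 30 lists, with points coloured by the test of the difference and black bars at the list median. Numbers at the right give genes called higher, genes called lower and genes tested, and 1 junction gene beyond the axis (Espn) is drawn as a triangle. Matrix and G2/M genes lie left of 0 and genes of mitochondrial ribosomes and fatty acid oxidation right of it.

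The most uniform list was that of the G2 phase and mitosis. Of 37 genes, 36 were lower in the difference and 0 higher (median -0.56), read against 13.3% of all genes tested. In TM3 36 rose, and in TM4 14 fell and 1 rose, with 13 genes opposite in the lines. Top2a (chromosome 11, 98992943 to 99024189), the topoisomerase that untangles chromosomes, had 566, 611 and 529 CPM in the TM4 MEHP libraries, against 687, 731 and 633 CPM in the TM4 DMSO libraries. TM3 libraries had 514, 538 and 534 CPM in the TM3 MEHP libraries, against 342, 354 and 336 CPM in the TM3 DMSO libraries, and neither pair of groups overlapped. Its response was -0.27 ± 0.06 in TM4 and 0.62 ± 0.06 in TM3, a difference of -0.88 ± 0.08 (adjusted p = 1.15e-09). Ect2, an exchange factor for cytokinesis, averaged 149.6 ± 14.3 CPM with MEHP and 185 ± 11.2 CPM with DMSO in TM4 and 75.9 ± 1.27 CPM with MEHP and 47.3 ± 3.27 CPM with DMSO in TM3 (-0.98 ± 0.09, adjusted p = 2.64e-09). Aurka, the spindle pole kinase, differed by -0.98 ± 0.12 and the kinesin gene Kif20b by -0.84 ± 0.11. For Mki67, the proliferation marker, the difference was smaller (-0.49 ± 0.15, adjusted p = 0.0331), and it was not called with library totals alone or without 1 of TM3 DMSO replicates 1 and 3, TM3 MEHP replicates 1 and 2, TM4 DMSO replicates 1 and 2 or TM4 MEHP replicate 2. Mad2l1, a spindle checkpoint protein, was the only 1 of the 37 not called.

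**Figure D4:**
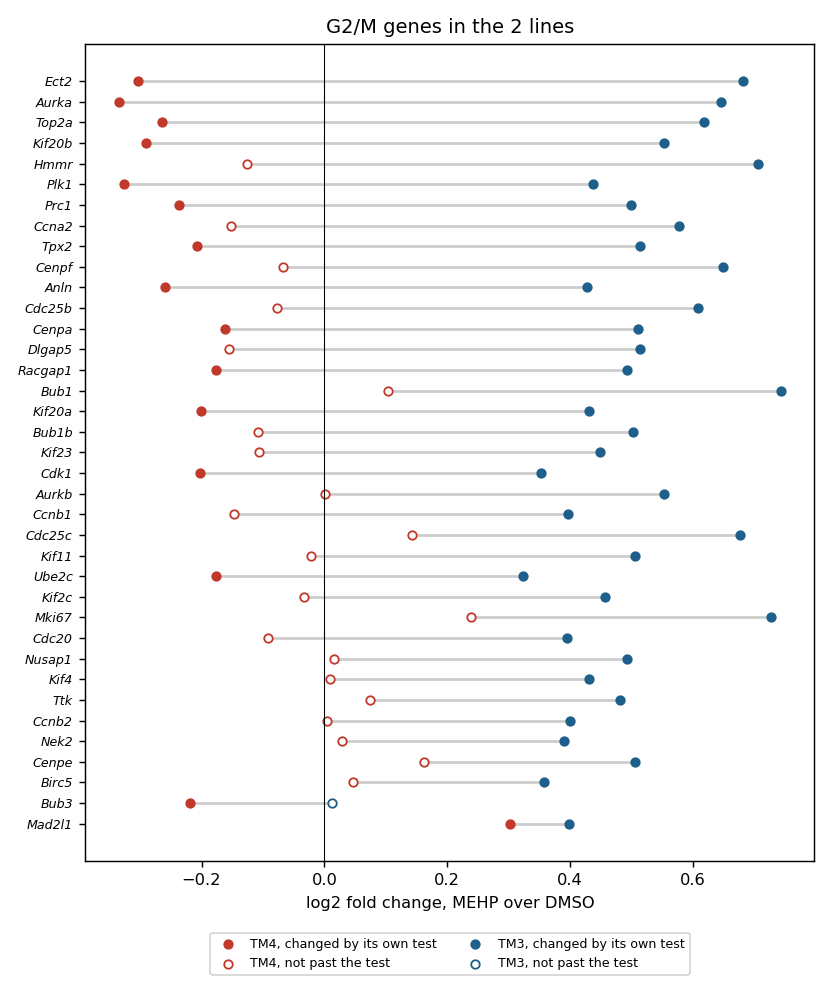
Responses to MEHP (log2 fold change over DMSO) of 37 G2/M genes in TM4 (red) and TM3 (blue), with filled circles for genes that passed the test in that line. Genes are ordered by the difference, and 36 of the TM3 points are filled to the right of 0 while 14 TM4 points are filled to its left.

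Genes of S phase did not share this pattern. Of 40, 9 were lower and 4 higher, with a median of -0.04, and 15 rose in each line. The share called was 32.5%, close to the 33.7% of all genes with enough counts in every library to be named. With library totals alone 5 were lower and 8 higher. Ccne1 and Ccne2, the cyclins of the G1 to S transition, were lower (-0.65 ± 0.15 and -0.87 ± 0.24), as was the origin licensing gene Cdc6 (-0.64 ± 0.16), whereas Gins2, a subunit of the replicative helicase, was higher (0.68 ± 0.14, adjusted p = 0.000409). The p53 target Cdkn1a, an inhibitor of cyclin-dependent kinases, was not called (95% interval -0.74 to 0.01), and it was called without TM3 DMSO replicate 1 and after the correction for length and GC content. The cell cycle homology region, with the letters TTTGAA, is a promoter element of G2/M genes read by the DREAM and B-MYB complexes and its letters hold none of the other motifs printed here. It was present on either strand in 23 of 31 G2/M promoters (74.2%), against 12.2% of all, 10.7% of those of genes called higher and 13.5% of those called lower. All 23 genes with the letters were lower (median -0.61), and so were 7 of the 8 without them (median -0.42). The promoters of Ect2 (chr3:27153829-27154128, minus strand) and Aurka (chr2:172370521-172370820, minus strand; GRCm38.p6), the list's largest differences, are shown with the letters or their reverse complement in capitals.
Ect2: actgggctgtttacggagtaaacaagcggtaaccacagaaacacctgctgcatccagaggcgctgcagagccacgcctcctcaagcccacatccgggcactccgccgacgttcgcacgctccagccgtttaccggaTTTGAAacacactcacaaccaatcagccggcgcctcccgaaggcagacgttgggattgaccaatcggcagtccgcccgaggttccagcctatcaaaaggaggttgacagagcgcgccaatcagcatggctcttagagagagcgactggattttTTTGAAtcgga
Aurka: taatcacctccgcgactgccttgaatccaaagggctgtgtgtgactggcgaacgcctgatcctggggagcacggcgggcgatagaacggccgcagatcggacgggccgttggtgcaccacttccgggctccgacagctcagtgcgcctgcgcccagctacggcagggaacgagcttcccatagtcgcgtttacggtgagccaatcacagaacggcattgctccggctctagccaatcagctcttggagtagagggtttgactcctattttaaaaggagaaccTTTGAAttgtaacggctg

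Interferon-stimulated genes were higher in the difference in 14 of 38 cases and lower in 5 (median 0.41). In TM4 23 rose and 4 fell, while in TM3 3 rose and 2 fell. Eif2ak2 (chromosome 17, 78852564 to 78882573), the kinase that halts translation on double-stranded RNA, had 65.1, 57.0 and 59.7 CPM in the TM4 MEHP libraries, against 31.3, 26.4 and 31.0 CPM in the TM4 DMSO libraries. Its TM3 libraries lay closer together, at 76.7, 72.9 and 71.3 CPM in the TM3 MEHP libraries, against 62.9, 67.0 and 67.8 CPM in the TM3 DMSO libraries, for a difference of 0.88 ± 0.10 (adjusted p = 1e-07). Xaf1, an apoptosis gene induced by interferon, differed by 0.88 ± 0.16, and Oas3, a synthetase of the 2-5A signal, by 0.86 ± 0.25 (adjusted p = 0.00938), not called without TM3 DMSO replicate 1. Irf7, a master factor of interferon induction, rose in TM4 (0.92 ± 0.11; difference 0.72 ± 0.23), and its call was lost with limma-voom and without TM3 DMSO replicates 1 or 3 or TM3 MEHP replicate 2. The core of the interferon-stimulated response element, TTCNNTTTC, was present in 13 of 27 promoters (48.1%), against 7.16% of all. Medians with and without it were 0.29 and 0.30. The promoter of Eif2ak2 (GRCm38.p6, chr17:78882523-78882822, minus strand) holds 2 overlapping matches, in capitals, and is shown by the same choice.
Eif2ak2: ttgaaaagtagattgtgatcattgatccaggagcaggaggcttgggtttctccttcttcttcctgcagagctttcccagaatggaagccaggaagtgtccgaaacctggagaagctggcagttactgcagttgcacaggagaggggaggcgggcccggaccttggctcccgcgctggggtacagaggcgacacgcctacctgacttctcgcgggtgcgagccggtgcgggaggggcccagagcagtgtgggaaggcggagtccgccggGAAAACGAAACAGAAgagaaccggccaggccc

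**Figure D5:**
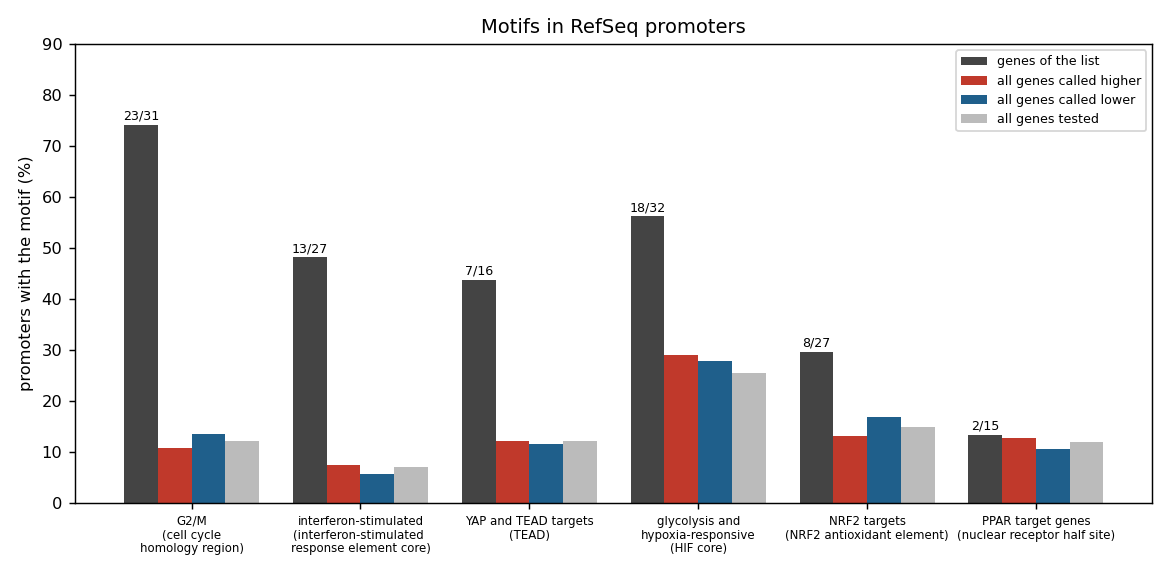
Share of RefSeq promoters (300 bases around the start) that hold a motif, in percent, for the genes of a list, all genes called higher, all called lower and all tested. Numbers above the first bar give promoters with the motif of those found, and the shares stand above those of all genes tested in the G2/M, interferon, YAP, hypoxia and NRF2 lists but close to them for the PPAR targets, at 13.3% against 12.1%. Other lists, not drawn, reached like shares for the YAP, hypoxia and NRF2 motifs.

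Inflammatory and antigen presentation genes were mixed. Of 24 NF-kB and inflammatory genes 7 were higher and 6 lower. The NF-kB letters GGGANTTCC were present in 4 of 16 promoters, against 2.32% of all. Relb, an NF-kB subunit, had 35.8, 30.5 and 32.4 CPM in the TM4 MEHP libraries, against 26.3, 20.9 and 26.7 CPM in the TM4 DMSO libraries. For TM3 it measured 19.6, 19.0 and 15.8 CPM in the TM3 MEHP libraries, against 31.8, 29.7 and 29.8 CPM in the TM3 DMSO libraries, opposite responses that differed by 1.16 ± 0.14 (adjusted p = 1.75e-07). Nfkbie, an inhibitor of NF-kB, also rose in TM4 and fell in TM3 (1.23 ± 0.20), and Saa3, an acute-phase protein, fell in TM3 alone (1.40 ± 0.29). Cxcl12, a chemokine that retains stem and immune cells, averaged 14.1 ± 2.72 CPM with MEHP and 33.5 ± 1.27 CPM with DMSO in TM4 and 1409 ± 17.0 CPM with MEHP and 1163 ± 32.0 CPM with DMSO in TM3, a difference of -1.53 ± 0.10 (adjusted p = 1.07e-11). Ccl2, which draws monocytes, fell in both lines, with no call on the difference (95% interval -0.21 to 0.60). Of 21 genes of MHC class I presentation 6 were higher and 3 lower, led by the proteasome activator gene Psme1 (0.74 ± 0.10) and the immunoproteasome gene Psmb10 (0.65 ± 0.12). Leukocyte markers summed to 3.38 to 4.33 CPM in TM4 MEHP, 1.96 to 3.09 in TM4 DMSO, 3.41 to 5.17 in TM3 MEHP and 4.36 to 5.00 in TM3 DMSO.

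Mitochondrial ribosomal proteins, which translate the mitochondrial messages, were higher in the difference in 23 of 41 cases and lower in 0 (median 0.36). Their genes rose in TM4 in 19 cases and fell in 1, and in TM3 3 fell. Mrps2, of the small subunit, had 15.2, 16.2 and 13.4 CPM in the TM4 MEHP libraries, against 8.14, 8.94 and 9.11 CPM in the TM4 DMSO libraries. In TM3 it had 36.3, 36.9 and 39.3 CPM in the TM3 MEHP libraries, against 40.9, 41.8 and 44.1 CPM in the TM3 DMSO libraries, and the difference was 0.95 ± 0.13 (adjusted p = 1.94e-06). Mrpl24 and Mrpl38, of the large subunit, differed by 0.87 ± 0.12 and 0.61 ± 0.09, and Mrps18a moved in opposite directions (0.81 ± 0.14). Cytosolic ribosomal proteins, by comparison, were lower in 2 of 43 cases and higher in 0. The number lower was 7 without TM4 MEHP replicate 3 and 1 without TM3 DMSO replicates 2 or 3, any 1 TM3 MEHP library, TM4 DMSO replicates 2 or 3 or TM4 MEHP replicate 1. With library totals alone, and without TM4 DMSO replicate 3, 1 was higher and 1 lower, and with the replicate block within each line 8 were lower and 1 higher. With length and GC content of the genes corrected for, as described further on, 12 were lower. Of 40 nuclear-encoded respiratory chain genes 6 were higher and 0 lower, a share close to the 13.0% of all genes tested that were higher. After the correction for length and GC content 3 were higher, with a median of 0.07 against 0.13 before it, and with library totals alone 19 were higher. The number higher was 2 without TM3 MEHP replicate 1, TM4 DMSO replicate 1 or TM4 MEHP replicate 3, it was 3 without TM3 DMSO replicates 1 or 3, TM3 MEHP replicate 2 or TM4 DMSO replicate 2, and it was 11 and 12 without TM4 DMSO replicate 3 and TM4 MEHP replicate 1. Ndufa8, of complex I, kept its call in each of these (0.43 ± 0.12, adjusted p = 0.00597).

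Transcripts of the mitochondrial genome itself were lower in 6 of 12 cases and higher in 1 (median -0.40). mt-Nd5, a complex I subunit, had 766, 667 and 629 CPM in the TM4 MEHP libraries, against 1178, 1154 and 1140.5 CPM in the TM4 DMSO libraries. The line TM3 had 1579, 1527 and 1559 CPM in the TM3 MEHP libraries, against 1572, 1765 and 1662 CPM in the TM3 DMSO libraries, where the groups overlapped, for a difference of -0.65 ± 0.08 (adjusted p = 5.91e-07). mt-Nd4 and mt-Nd6 fell in both lines, further in TM4 (-0.50 ± 0.07 and -0.48 ± 0.08). mt-Nd6 lies on the other strand of the same molecule, and the strand setting of the counting is not given. The gene on the other side, mt-Atp6 (1.45 ± 0.23, adjusted p = 0.000247), overlaps mt-Atp8, so its value is uncertain. Mitochondrial transcripts took 1.51%, 1.48% and 1.46% of the counts in the TM4 MEHP libraries, against 1.66%, 1.72% and 1.69% in the TM4 DMSO libraries. In TM3 they took 1.80%, 1.82% and 1.79% in the MEHP libraries, against 1.82%, 1.87% and 1.83% in the DMSO libraries.

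Stress pathways split by branch. Of 27 ER chaperone and unfolded protein response genes, 16 were lower and 1 higher (median -0.29), with 18 falling and 2 rising in TM4. Hspa5, the chaperone BiP, had 7839, 7331 and 9104 CPM in the TM4 MEHP libraries, against 9875, 9705 and 10675 CPM in the TM4 DMSO libraries. TM3 gave 549, 547 and 538 CPM in the TM3 MEHP libraries, against 494, 453 and 484 CPM in the TM3 DMSO libraries, so the lines moved apart by -0.51 ± 0.09 (adjusted p = 6.01e-05). Edem1, of protein disposal from the ER, moved likewise (-0.50 ± 0.07), and Sdf2l1 and Manf fell in TM4 alone (-0.51 ± 0.13 and -0.44 ± 0.11). The gene higher was Sec61b, of the ER translocon (0.33), which lost its call without TM3 DMSO replicate 1 or TM4 DMSO replicate 1, and 2 genes were higher without TM4 MEHP replicate 1. ATF4 targets and genes of amino acid supply rose in both lines, 22 in TM4 and 18 in TM3 of 40, and in the difference 9 were higher and 7 lower (11 lower without TM3 DMSO replicate 1). The CRE letters TGACGTCA were present in 1 of 31 promoters (3.23%), against 3.22% of all. Other letters that ATF4 may bind were not searched, so this share says nothing about them. Asns, which makes asparagine, rose in TM3 (0.77 ± 0.08) and stood at 0.11 ± 0.07 in TM4 (-0.66 ± 0.11, adjusted p = 7.83e-05). Aldh1l2, of mitochondrial folate metabolism, passed in TM3 alone too (-0.90 ± 0.13), while Stc2, a secreted stanniocalcin, rose in TM4 alone (0.75 ± 0.17).

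Antioxidant genes under the control of NRF2 were higher in 8 of 33 cases and lower in 10 (median 0.00). Hmox1, which breaks down heme, had 205, 198 and 245 CPM in the TM4 MEHP libraries, against 119.6, 115 and 127 CPM in the TM4 DMSO libraries. In TM3 it had 73.4, 63.7 and 64.8 CPM in the TM3 MEHP libraries, against 85.8, 73.2 and 78.8 CPM in the TM3 DMSO libraries, where the lowest DMSO library lay just below the highest MEHP library, and the opposite responses differed by 1.08 ± 0.11 (adjusted p = 1.38e-07). Srxn1, sulfiredoxin, rose in TM4 alone (0.75 ± 0.12), and Aox1, an aldehyde oxidase, rose in TM3 alone (-0.88 ± 0.19). The cystine transporter gene Slc7a11 rose in both lines and its difference was not called (95% interval -0.15 to 0.67), but it was called, at 0.47, after the correction for length and GC content. The NRF2 letters TGACNNNGC, whose open places can hold those of HIF, were present in 8 of 27 promoters (29.6%), against 14.8% of all. Promoters of ATF4 targets and amino acid supply held them about as often, in 10 of 31 (32.3%).

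Lysosome and autophagy genes were higher in 12 of 37 cases and lower in 1 (median 0.17). In TM3 19 fell and 1 rose, and in TM4 6 fell and 4 rose. Ctsa, a protective lysosomal peptidase, had 76.1, 86.9 and 86.4 CPM in the TM4 MEHP libraries, against 70.4, 80.4 and 79.6 CPM in the TM4 DMSO libraries, with the groups overlapping. TM3 libraries held 117, 109.9 and 116 CPM in the TM3 MEHP libraries, against 169, 158 and 163 CPM in the TM3 DMSO libraries, where the groups did not overlap, and the difference was 0.63 ± 0.09 (adjusted p = 2.09e-06). Atp6v0d1, of the proton pump, and Neu1, a sialidase, rose in TM4 and fell in TM3 (0.67 ± 0.08 and 0.55 ± 0.09). The gene lower was Wipi1, an early autophagy protein (-0.75 ± 0.09), and the number lower was 2 without TM4 MEHP replicate 1.

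Immediate early genes, the first to answer growth signals, were higher in 12 of 30 cases and lower in 4. In TM3 1 rose and 9 fell, and in TM4 8 rose and 10 fell. Fosl1, of the AP-1 factors, rose in TM4 alone (0.86 ± 0.23), Btg2, an antiproliferative gene, fell in TM3 alone (0.79 ± 0.11), and Nr4a2, an orphan nuclear receptor, fell in TM4 and rose in TM3 (-1.11 ± 0.20). Of 27 p53 targets 6 were higher and 4 lower (37.0% called). Of 27 genes of the BCL2 family and apoptosis 6 were higher and 6 lower (44.4% called). Of all genes with 10 or more counts in every library 33.7% were called. The number of BCL2 family and apoptosis genes higher was 3 when TM3 DMSO replicate 1 or TM3 MEHP replicate 2 was left out. Fas, the death receptor, averaged 4.06 ± 0.0800 CPM with MEHP and 8.25 ± 1.13 CPM with DMSO in TM4 and 6.64 ± 1.49 CPM with MEHP and 6.17 ± 0.675 CPM with DMSO in TM3 (-1.13 ± 0.24, adjusted p = 0.000566). Bad, which promotes apoptosis, rose in TM4 and fell in TM3 (0.77 ± 0.13), and Bbc3, the p53 target PUMA, fell in TM3 alone (0.75 ± 0.20).

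Outside the lists, the largest differences lay mostly in genes with few counts. Crispld2, a secreted protein of lung and face development, had 4.03, 4.51 and 3.04 CPM in the TM4 MEHP libraries, against 10.5, 10.2 and 9.67 CPM in the TM4 DMSO libraries. The TM3 values were 1.45, 1.68 and 2.75 CPM in the TM3 MEHP libraries, against 1.21, 1.14 and 0.696 CPM in the TM3 DMSO libraries, and the difference of -2.32 ± 0.35 (adjusted p = 8.4e-06) was the largest negative one among genes with 10 or more counts in every library. Ptchd4, a patched-domain protein, differed by -1.93 ± 0.27 (adjusted p = 2.79e-06). Car12, a carbonic anhydrase of the cell surface, averaged 26.9 ± 2.23 CPM with MEHP and 41.9 ± 1.12 CPM with DMSO in TM4 and 14.5 ± 1.36 CPM with MEHP and 7.57 ± 0.420 CPM with DMSO in TM3 (-1.58 ± 0.14, adjusted p = 5.97e-10). Of the largest positive differences after Angptl4, Slc10a3 (1.71 ± 0.37), Rpp38, a subunit of ribonuclease P (1.62 ± 0.33), Senp8, a protease of NEDD8 (1.51 ± 0.28), and Tbcc, a tubulin folding cofactor (1.45 ± 0.23), rose in TM4 alone from means under 2 CPM. Ypel1 (1.56 ± 0.32), Ggct, an enzyme of glutathione breakdown (1.23 ± 0.20), and Amdhd2, of amino sugar metabolism (1.22 ± 0.21), rose in TM4 and fell in TM3. Among genes that fell in both lines, Selenop, a selenium carrier, and Atp1b1, a sodium pump subunit, fell further in TM4 (-0.91 ± 0.09 and -0.73 ± 0.10), and the noncoding RNA Fendrr rose in both, further in TM4 (1.08 ± 0.18). The last genes inside the limit of 12 a side were Zfp93 (1.43) and S100a3 (-1.55), and the first outside were Itgb2 (1.42) and E2f7 (-1.54).

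A large response need not differ between the lines. Angptl7 (chromosome 4, 148495183 to 148500460), a secreted angiopoietin-like protein, had 4.81, 4.89 and 5.11 CPM in the TM4 MEHP libraries, against 19.5, 16.8 and 20.5 CPM in the TM4 DMSO libraries. In TM3, where it was far more abundant, it had 129, 114 and 123 CPM in the TM3 MEHP libraries, against 485, 458 and 479 CPM in the TM3 DMSO libraries. The response was -1.93 ± 0.10 in TM4 and -1.96 ± 0.06 in TM3, and the 95% interval of the difference ran from -0.27 to 0.31 (adjusted p = 0.944). Star, which brings cholesterol into mitochondria for steroid synthesis, was not called either (95% interval -0.84 to 0.19).

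Gene length and level moved with the calls. The median length of gene models was 3482 bases for genes called higher, 6084.5 bases for genes called lower and 3462 bases for the rest. In the longest of 5 equal parts by length 27.2% of the genes were lower and 7.68% higher, and in the shortest 3.76% were lower and 10.1% higher. The median response was -0.063 in TM4 and 0.065 in TM3 in the longest part, and 0.005 and -0.027 in the shortest. After the correction given next, the longest part stood at -0.013 in TM4 and -0.016 in TM3. The part of length in the opposite responses was not tested. With length and GC content corrected for, an alternative chosen after the data had been seen, 4140 genes were called, 3389 of them shared with the uncorrected fit, and matrix genes stood at 31 lower and 2 higher, G2/M genes at 34 lower and 0 higher, mitochondrial ribosomal genes at 20 higher and 0 lower and fatty acid oxidation genes at 14 higher and 2 lower. The correction also gave 2 cholesterol genes and 2 ER genes higher, 2 lysosome genes and 1 PPAR target lower and 1 fatty acid synthesis gene higher. The share of genes called was 4.23%, 23.2%, 35.5% and 42.4% from the lowest to the highest of 4 equal parts by mean level. Called differences had a median size of 2.11 on the log2 scale in the lowest part and 0.36 in the highest. A difference in a gene with few counts may therefore have gone undetected, and the part of depth was not tested.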

How the data were processed

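RNA of TM4 and TM3 cells was measured in 12 libraries, with groups taken from sample titles. The authors deposited raw counts per gene, without normalization. The submitters' processing notes name DESeq2 1.20.0, edgeR, featureCounts 1.5.0-p3, HISAT2 2.0.5 and StringTie 1.3.3b with the mm10 build. How reads were assigned, by which strand and to which annotation release is not given in the sources used here. Values of genes that overlap, lie antisense or have several copies are therefore uncertain. Some labels call the lines rat, but organism and gene identifiers are mouse, and the counts were treated as mouse.

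With filterByExpr and TMM factors, edgeR 4.0.16 (R 4.3.3) fitted 1 robust quasi-likelihood model over all libraries with the group as its term, which left 8 residual degrees of freedom. The biological coefficient of variation was 6.00%. Contrasts were each line's response and their difference, at a Benjamini-Hochberg adjusted p under 0.05. "Rose" and "fell" refer to the test within a line, "higher" and "lower" to the difference. Standard errors are the absolute log2 change over the square root of F, and 95% intervals use t with 8 degrees of freedom. The tests share the spread across genes and so generally use more degrees of freedom. These intervals are therefore wider than the tests imply, and an interval that holds 0 need not match the unadjusted p.

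The members and gene lists were chosen with earlier results of these data known. Named genes were the 12 largest differences each way, the 6 largest of each opposite class, the 4 largest of each same-direction class, up to 4 called genes per list and a few looked up always, all with 10 or more counts in every library and no predicted or clone name. Lpl, Filip1l, Sec61b, Espn, Mad2l1, Itgb2, E2f7, Per1 and the clock and forkhead genes were named after their values were seen. Wt1 and Postn, also looked up, missed the count rule. Some genes that the rule names are not reported here. Lists were described by counts and medians, without a set test. Promoters are from RefSeq (GRCm38.p6, the sequence of mm10), found for 10485 of 15409 symbols, and both strands were searched. Alternatives were other factors and filters, DESeq2 1.42.0, limma-voom (limma 3.58.1), glmTreat, a stricter threshold, replicate blocks, each library left out and, added after the data were seen, splines of gene length and GC content with 4 degrees of freedom each (GC known for 98.1% of genes, the other 305 at the median). The fit was checked beforehand on simulated data with the same spread for every gene and changes planted only in genes with higher counts. That check does not cover genes with few counts or a spread that varies between genes.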

Additional observations from a re-analysis of the deposited data

Results flagged for a closer look

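The responses to MEHP differed between TM4 and TM3 in 4134 genes by the test of the difference itself, and 11 named genes whose responses were opposite in sign are given here with their values. Those that rose in TM4 and fell in TM3 were mt-Atp6 (log2 difference 1.45), Gstp1 (1.29), Nfkbie (1.23), Ggct (1.23) and Amdhd2 (1.22). Those that fell in TM4 and rose in TM3 were Crispld2 (-2.32), Ptchd4 (-1.93), Fhl1 (-1.86), Fabp5 (-1.73), Per2 (-1.65) and Car12 (-1.58). Gstp1, a glutathione transferase with close copies in the genome, averaged 83.6 ± 4.32 CPM with MEHP and 71.5 ± 1.82 CPM with DMSO in TM4 and 0.804 ± 0.193 CPM with MEHP and 1.71 ± 0.896 CPM with DMSO in TM3 (SD, n = 3), and its call was lost without TM3 DMSO replicate 3. Its reads may be shared with its copies, so its value is uncertain.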

How the results depend on the processing

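Of 149 named genes 141 were called, and 113 of the 149 kept their direction and their side of the threshold in all 25 alternatives. Counts of genes called in the difference were 4129 with RLE factors, 4169 with upper-quartile factors, 4468 with library totals alone, 4122 with TMM factors set within each line, 3933 without a filter on low counts, 4087 with DESeq2 and 4014 with limma-voom. With library totals alone 3119 genes were higher and 1349 lower, and in TM4 3829 rose and 1384 fell. The share of TM4 calls that rose was 51.5% with TMM, 45.1% with RLE, 55.4% with upper-quartile factors and 44.3% with DESeq2. When a fold of 1.2 was tested against (glmTreat), 1481 differed (715 higher, 766 lower), 17 in opposite directions, 2 in the same, 666 in TM4 alone, 171 in TM3 alone and 625 in neither, with 1185 genes called in TM4 (691 up, 494 down) and 376 in TM3 (251 up, 125 down). At an adjusted p under 0.01, 2588 differed (1216 higher, 1372 lower), 273 opposite, 29 the same way, 1469 in TM4 alone and 491 in TM3 alone, with 3220 called in TM4 (1617 up) and 1492 in TM3 (862 up, 630 down). Without single libraries the total ran from 3458 to 4388, genes higher from 1647 to 2098, genes lower from 1772 to 2290, opposite genes from 388 to 695, genes moving the same way from 46 to 86 and falls in TM3 from 709 to 1313. Ppard stood at 0.022 with library totals alone, and Angptl7 ran from -0.065 to 0.082 without single libraries and stood at -0.053 after correction for length and GC content, neither called. Where a list had no gene called higher in the difference, DESeq2 called 0 as well, and at an unadjusted p under 0.05 edgeR also gave 0 for G2/M genes, YAP targets, cytosolic ribosomal proteins and myoid and fibroblast markers. For lower calls it gave 1 for mitochondrial ribosomal proteins and 0 for respiratory chain genes. Replicate numbers were not taken as pairs in the main fit. Deviations of same-numbered libraries within a line correlated at 0.00, 0.03 and 0.02 in TM3 and at 0.11, 0.03 and 0.12 in TM4. For differently numbered libraries the range was -0.03 to 0.02 in TM3 and -0.12 to 0.01 in TM4. A pairing by number in TM4 therefore cannot be dismissed. With the replicate block within each line 5023 genes differed, 977 of them in opposite directions and 171 in the same, and with 1 replicate block across all groups 4366 differed. Against a fold of 1.2, Ndufa8, Cgn, Sdf2l1, Manf, Rxra, Acaca, Bnip3, Irf7 and Mki67 were not called, nor were Irf7 and Mki67 at an adjusted p under 0.01. The cause of these changes was not tested. In the lowest of 4 equal parts by level, up to 2.58 CPM on average, genes were called in 4.23% of cases. Differences there may have gone undetected, and the part of depth was not tested.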

Other observations

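Genes of the circadian clock, a list drawn up after values had been seen, were lower in the difference in 8 of 17 cases and higher in 0, with a median of -0.33. Over all genes tested 13.3% were lower and 13.0% higher, and of those with 10 or more counts in every library 17.0% and 16.7%. Of the clock genes 10 fell and 2 rose in TM4, and 4 rose and 1 fell in TM3. Per2, a repressor of the clock, had 7.24, 4.67 and 6.78 CPM in the TM4 MEHP libraries, against 12.5, 13.0 and 12.5 CPM in the TM4 DMSO libraries. In TM3 it had 7.06, 7.24 and 10.1 CPM in the TM3 MEHP libraries, against 3.46, 6.47 and 5.82 CPM in the TM3 DMSO libraries, and the difference was -1.65 ± 0.26 (adjusted p = 4.16e-05). Per1, its relative, fell in TM4 (-0.85 ± 0.06) and rose in TM3 (0.18 ± 0.06), a difference of -1.03 ± 0.08. The output factors Dbp, Tef and Hlf fell in TM4 alone, with differences of -0.74 ± 0.17, -0.95 ± 0.08 and -0.65 ± 0.22. Of the partners in the positive limb, Clock fell in TM4 and rose in TM3 (-0.47 ± 0.10, adjusted p = 0.000497), and Arntl was not called (-0.10 ± 0.17, adjusted p = 0.723).

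Of 974 transcription factor genes in the authors' family column 163 were higher in the difference and 146 lower. The share called, 31.7%, was close to the 30.9% of protein-coding genes, against 26.3% of all genes tested. Forkhead genes, singled out after their values had been seen, were lower in 11 of 20 cases and higher in 2. Foxc1 fell in TM4 alone (-1.07 ± 0.09), Foxm1, a driver of mitotic genes, rose in TM3 alone (-0.43 ± 0.08), and Foxo4 was higher (0.57 ± 0.09). Zinc finger genes of the C2H2 type were higher in 91 of 438 cases and lower in 33. The shares of all genes tested, to be set beside both families, were 13.0% higher and 13.3% lower. Protein-coding genes were called in 30.9% of 12595 cases and lincRNA genes in 8.84% of 430.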
